A study of Mus musculus with 4 samples.

Results

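The genes Timp1, Timp2, Timp3, Plau, Plat, Plaur, Mmp7 and Mmp14 encode inhibitors of extracellular proteases, the plasminogen activators with their receptor, and secreted or membrane-bound metalloproteinases. They were chosen by name, with earlier results of these data known, and all 8 were among the 32285 genes of the files. Their level was followed in spatial transcriptomes of mouse kidney, per section and per kidney zone. The sections came from left kidneys of male WT C57BL/6J mice aged 7 to 8 weeks. Normal control kidneys gave 2 sections (normal 1 and 2). Ischemic kidneys, taken 24 h after both renal pedicles had been clamped for 30 min, gave the other 2 sections (ischemic 1 and 2). No sham operation was named for the control mice, so surgery and ischemia cannot be told apart. Kidneys were de-capsulated, snap-frozen and cut at 10 µm. The study used 2 slides, and its methods do not assign sections to slides. Neither labels nor methods tie a section to its mouse, and the study describes technical replicates, so p-values measure the spread between sections, which may be technical.

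Plasmin, formed from circulating plasminogen, degrades fibrin and activates other proteases. Urokinase (Plau) and tissue plasminogen activator (Plat) carry out that conversion, and Plaur is the cell-surface receptor that concentrates urokinase. Matrix metalloproteinases cut matrix and surface proteins and are held in check by the tissue inhibitors of metalloproteinases (Timp genes). In kidney, urokinase is made by tubule cells and tissue plasminogen activator by endothelium among others, Timp3 is bound to matrix, and Mmp7 (matrilysin) is known as an epithelial enzyme of injured tubules.

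Visium counts unique molecular identifiers (UMIs) on barcoded spots that each cover several cells. The sections held 2401 to 2682 tissue spots, 10312 in all, and 25957128 to 44528078 UMIs, with medians of 8656 to 16163 UMIs per spot. Havcr1 (Kim-1), a marker of injured proximal tubule, stood at 1.17 and 2.14 CPM (UMIs of a gene per 1000000 UMIs, TMM-normalised for single genes) in the normal sections and at 1288 and 1279.7 CPM in the ischemic sections, as the labels say. The 5 genes of an injured tubule list were all detected in every section and summed to 15.1 and 23.9 CPM in normal and 4720 and 5317 CPM in ischemic sections. A neutrophil list of 6 genes summed to 1.62 and 2.64 CPM against 182 CPM in each ischemic section, a fibroblast and mural cell list of 6 genes to 171 and 282 CPM against 516 and 534 CPM, and an endothelial list of 5 genes to 250 and 321 CPM against 390.5 and 434 CPM. A macrophage and monocyte list stayed within 174 to 246 CPM. Lists of 4 genes each for perirenal fat and blood were lower in ischemic sections, fat at 3.74 and 3.78 CPM against 354 and 185 CPM, and blood at 763 and 1614 CPM against 8874 and 9027 CPM. No gene of these lists was at 0 in any section, and the part of these cells in the results below was not tested. In sums over whole spots, fewer cells of a type and less RNA per cell cannot be told apart.

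On GRCm38, the build of the deposited counts (mm10), Timp1 lies at chrX:20870166-20874735 on the plus strand, inside Syn1 on the opposite strand. Timp3 (chr10:86300372-86349506, plus) lies inside Syn3 on the opposite strand. Timp2 (chr11:118301069-118355740, minus) shares its span with Cep295nl on the same strand, and Mmp7 (chr9:7692090-7699585, plus) with AV064505 on the opposite strand. Plau (chr14:20836660-20843385, plus), Plat (chr8:22757727-22782844, plus), Plaur (chr7:24462484-24475968, plus) and Mmp14 (chr14:54431612-54445364, plus) overlap no other annotated gene. Syn1 reached at most 0.412 CPM in any section and Syn3 stood between 2.86 and 6.81 CPM, far below Timp1 in ischemic sections and Timp3 in all sections.

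RefSeq promoter windows of GRCm38.p6, from 250 bases before to 50 bases after a start site, matched 6 of the 8 genes, all but Plau and Plat. The 120 bases before the start are printed for Timp1, Plaur and Mmp7, the members with the largest differences between conditions. Capitals mark the AP-1 motif TGANTCA and the TATA motif TATAAA, both searched on both strands.
Timp1, chrX:20870046-20870165, plus strand: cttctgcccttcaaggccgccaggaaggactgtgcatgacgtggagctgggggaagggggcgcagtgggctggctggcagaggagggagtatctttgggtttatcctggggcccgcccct
Plaur, chr7:24462363-24462482, plus strand: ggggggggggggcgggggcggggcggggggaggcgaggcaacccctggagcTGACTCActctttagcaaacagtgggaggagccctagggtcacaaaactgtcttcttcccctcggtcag
Mmp7, chr9:7691970-7692089, plus strand: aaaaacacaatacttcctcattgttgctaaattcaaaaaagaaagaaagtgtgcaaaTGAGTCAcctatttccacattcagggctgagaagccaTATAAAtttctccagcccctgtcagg
The AP-1 letters began 69 bases before the start of Plaur and 63 bases before the start of Mmp7, and TATAAA began 26 bases before the start of Mmp7 and again at 123 bases before it, outside the printed stretch. Neither motif was found in the windows of Timp1, Timp2, Timp3 and Mmp14, nor in a second window of Mmp7 at a later start. Of all 32851 windows, 7.81% held TGANTCA and 13.6% held TATAAA, so a match describes the letters and is no evidence of binding.

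Over whole sections, Timp1, Plaur, Mmp7, Plat and Plau rose in ischemic kidney, Timp3 and Timp2 fell, and Mmp14 did not pass the test. The inhibitors therefore split: the level of Timp1 was 82.4 times that of normal sections, while Timp3 and Timp2 stood at 0.598 and 0.730 of it. Calls were made with edgeR's quasi-likelihood test at an adjusted p under 0.05, over 15305 genes. The 5 members called higher and 2 called lower compare with 31% and 29.7% of all genes tested, 4737 and 4542 genes. Scaling by total counts in place of edgeR's TMM raised all log2 differences by a median of 0.27 and gave 5754 genes higher and 2828 lower. The median log2 difference was 1.27 over the members and 0.04 over all genes tested. Because the members were chosen with earlier results of these data known, these comparisons with all genes are descriptions and no test.

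**Figure D1:**
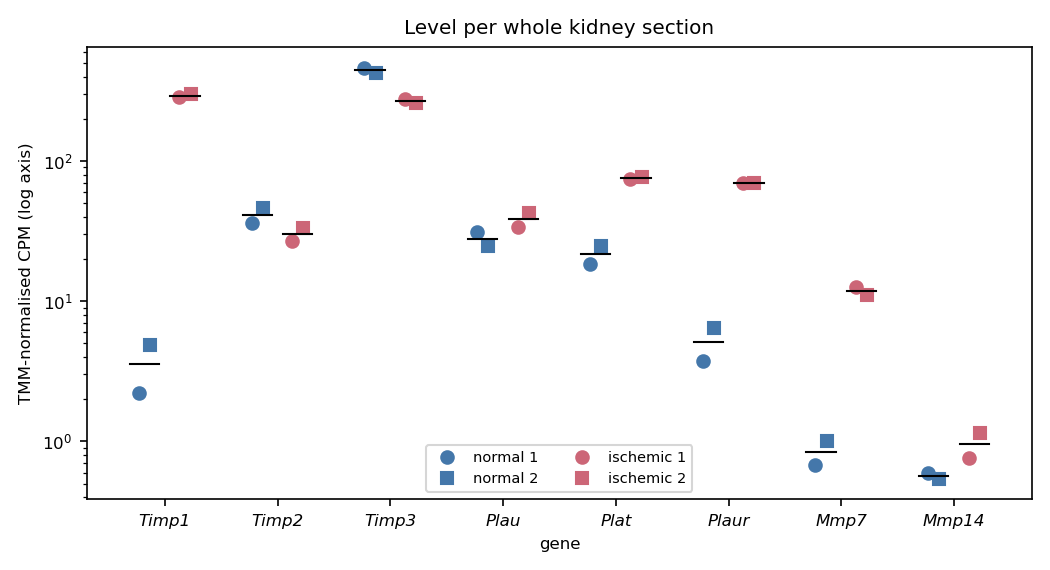
TMM-normalised CPM (log axis) of the 8 genes in each of the 4 sections, with circles for replicate 1, squares for replicate 2 and a line at the mean of each condition. The 2 ischemic sections lie above both normal sections for Timp1 (288 and 298 CPM against 2.22 and 4.89 CPM), Plau, Plat, Plaur, Mmp7 and Mmp14 and below them for Timp2 and Timp3.

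Timp1, the inducible member of the inhibitor family, was measured at 2.22 and 4.89 CPM in normal sections 1 and 2 and at 288 and 298 CPM in ischemic sections 1 and 2. Both ischemic sections were far above both normal sections and close to each other. The means were 3.56 ± 1.89 and 293 ± 7.06 CPM (SD, n = 2 sections each), a log2 difference of 6.40 ± 0.29 (SE, edgeR adjusted p = 3.66e-07). The normal sections held only 82 and 135 UMIs of Timp1. At least 1 UMI was seen in 2.91% and 3.43% of normal spots and in 84.1% and 79.7% of ischemic spots. After each spot was thinned to 2000 UMIs, to set aside depth, these shares were 0.467% and 0.750% against 42.2% and 44.7%. The difference remained past the threshold in all 9 alternatives, between 5.91 and 7.01.

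Timp3, the matrix-bound inhibitor, was measured at 464 and 426 CPM in normal and at 275 and 258 CPM in ischemic sections. The groups did not overlap, and the gap between them was larger than the spread within either. The log2 difference was -0.74 ± 0.13 (adjusted p = 0.00103). It was lost as a call without ischemic 1 (-0.77) or without ischemic 2 (-0.69), with little change in size. At 2000 UMIs per spot, 51.0% and 53.8% of normal spots and 43.0% and 42.9% of ischemic spots held a UMI of Timp3. Syn3, which overlaps it, fell by 1.23 on the log2 scale from 6.59 and 6.81 CPM, and strand was not stated for the counting.

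Timp2, which inhibits metalloproteinases and also takes part in the activation of pro-Mmp2 by Mmp14, stood at 36.0 and 46.4 CPM in normal and at 26.9 and 33.3 CPM in ischemic sections. The highest ischemic and lowest normal section were only a little apart. The log2 difference of -0.45 ± 0.14 passed the threshold (adjusted p = 0.0221). It did not pass it with scaling by total counts (-0.20) or without ischemic 1 (-0.29). Thinned to 2000 UMIs, 6.81% and 9.04% of normal spots held a UMI of Timp2 against 6.36% and 7.85% of ischemic spots, and these ranges overlapped.

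Plau, the urokinase gene, was present in normal kidney at 31.0 and 24.9 CPM and stood at 34.1 and 42.5 CPM in ischemic sections. Normal 1 and ischemic 1 lay close together. Its log2 difference was 0.45 ± 0.14 (adjusted p = 0.0188), and without ischemic 2 it was 0.29 and no longer called. A UMI of Plau was found in 4.87% and 4.46% of normal spots and 6.36% and 8.29% of ischemic spots at 2000 UMIs.

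Plat, the other activator, rose more. It stood at 18.4 and 24.9 CPM in normal and 74.5 and 76.7 CPM in ischemic sections, with no overlap. The means were 21.6 ± 4.54 and 75.6 ± 1.54 CPM, a ratio of 3.49 and a log2 difference of 1.81 ± 0.14 (adjusted p = 6.35e-06). The difference ranged from 1.61 to 2.06 over the alternatives, all past the threshold. Thinned shares of spots were 3.70% and 5.17% against 13.5% and 14.7%.

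Plaur, the urokinase receptor, was measured at 3.77 and 6.49 CPM in normal and at 69.2 and 69.4 CPM in ischemic sections. The ischemic sections were nearly equal, and both were far above the normal sections. The log2 difference was 3.78 ± 0.19 (adjusted p = 6.79e-07), with a range of 3.43 to 4.17 over the alternatives. At 2000 UMIs, 0.974% and 1.78% of normal and 13.3% and 12.8% of ischemic spots held a UMI. Receptor and activators thus did not move by the same amount: the fitted log2 difference was 3.78 for Plaur, 1.81 for Plat and 0.45 for Plau.

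Mmp7 was near the limit of detection in normal kidney. Normal 1 held 25 UMIs in 6 spots, 18 of them in a single spot, and normal 2 held 28 UMIs in 17 spots. Ischemic 1 and 2 held 427 and 317 UMIs in 276 and 234 spots, so the signal was spread over many more spots. In CPM this was 0.678 and 1.01 against 12.6 and 11.1, a log2 difference of 3.83 ± 0.21 (adjusted p = 1.03e-06). Over the alternatives the difference lay between 3.55 and 4.84. Mmp14, a membrane-type metalloproteinase, was sparse throughout, with 22, 15, 26 and 33 UMIs in normal 1, normal 2, ischemic 1 and ischemic 2. Normal sections stood at 0.596 and 0.543 CPM, ischemic sections at 0.766 and 1.15 CPM. Although these did not overlap, the log2 difference of 0.73 ± 0.35 was not called (adjusted p = 0.0970). With the pelvis spots left out it was 0.90 and was called, so at this depth the result for Mmp14 is undecided.

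Zones were assigned to spots from marker lists scored within each section, and the counts of a zone were summed per section. In the zone tests the 5 zones of a section counted as independent, with no term for the section in the main fit. Their adjusted p-values can therefore be smaller than 2 sections per condition warrant. Cortex took 36.5% to 45.0% of the spots, outer stripe 25.9% to 30.7%, inner stripe 12.8% to 20.9%, inner medulla 5.12% to 12.2% and pelvis at least 4.37%. The zone markers themselves differed between conditions. The cortex list summed to 2693 and 2808 CPM in normal and 596 and 555 CPM in ischemic sections. The outer stripe list summed to 1866 and 1605 CPM against 296 and 306 CPM. The inner medulla list went the other way, at 1227 and 1540 CPM against 3287 and 3443 CPM. Spots set as inner medulla lay nearer the tissue edge in normal sections. Their median depth was 0.071 and 0.077 of the greatest depth there, against 0.357 in both ischemic sections. The pelvis list summed to 202 and 530 CPM in normal and 35.2 and 64.5 CPM in ischemic sections. Without neighbours, 66.9% and 62.7% of normal pelvis spots stayed pelvis, against 28.6% and 28.7% of ischemic ones. A zone in ischemic kidney is therefore a relative assignment, and 14.7% to 18.5% of spots lay near a boundary.

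**Figure D2:**
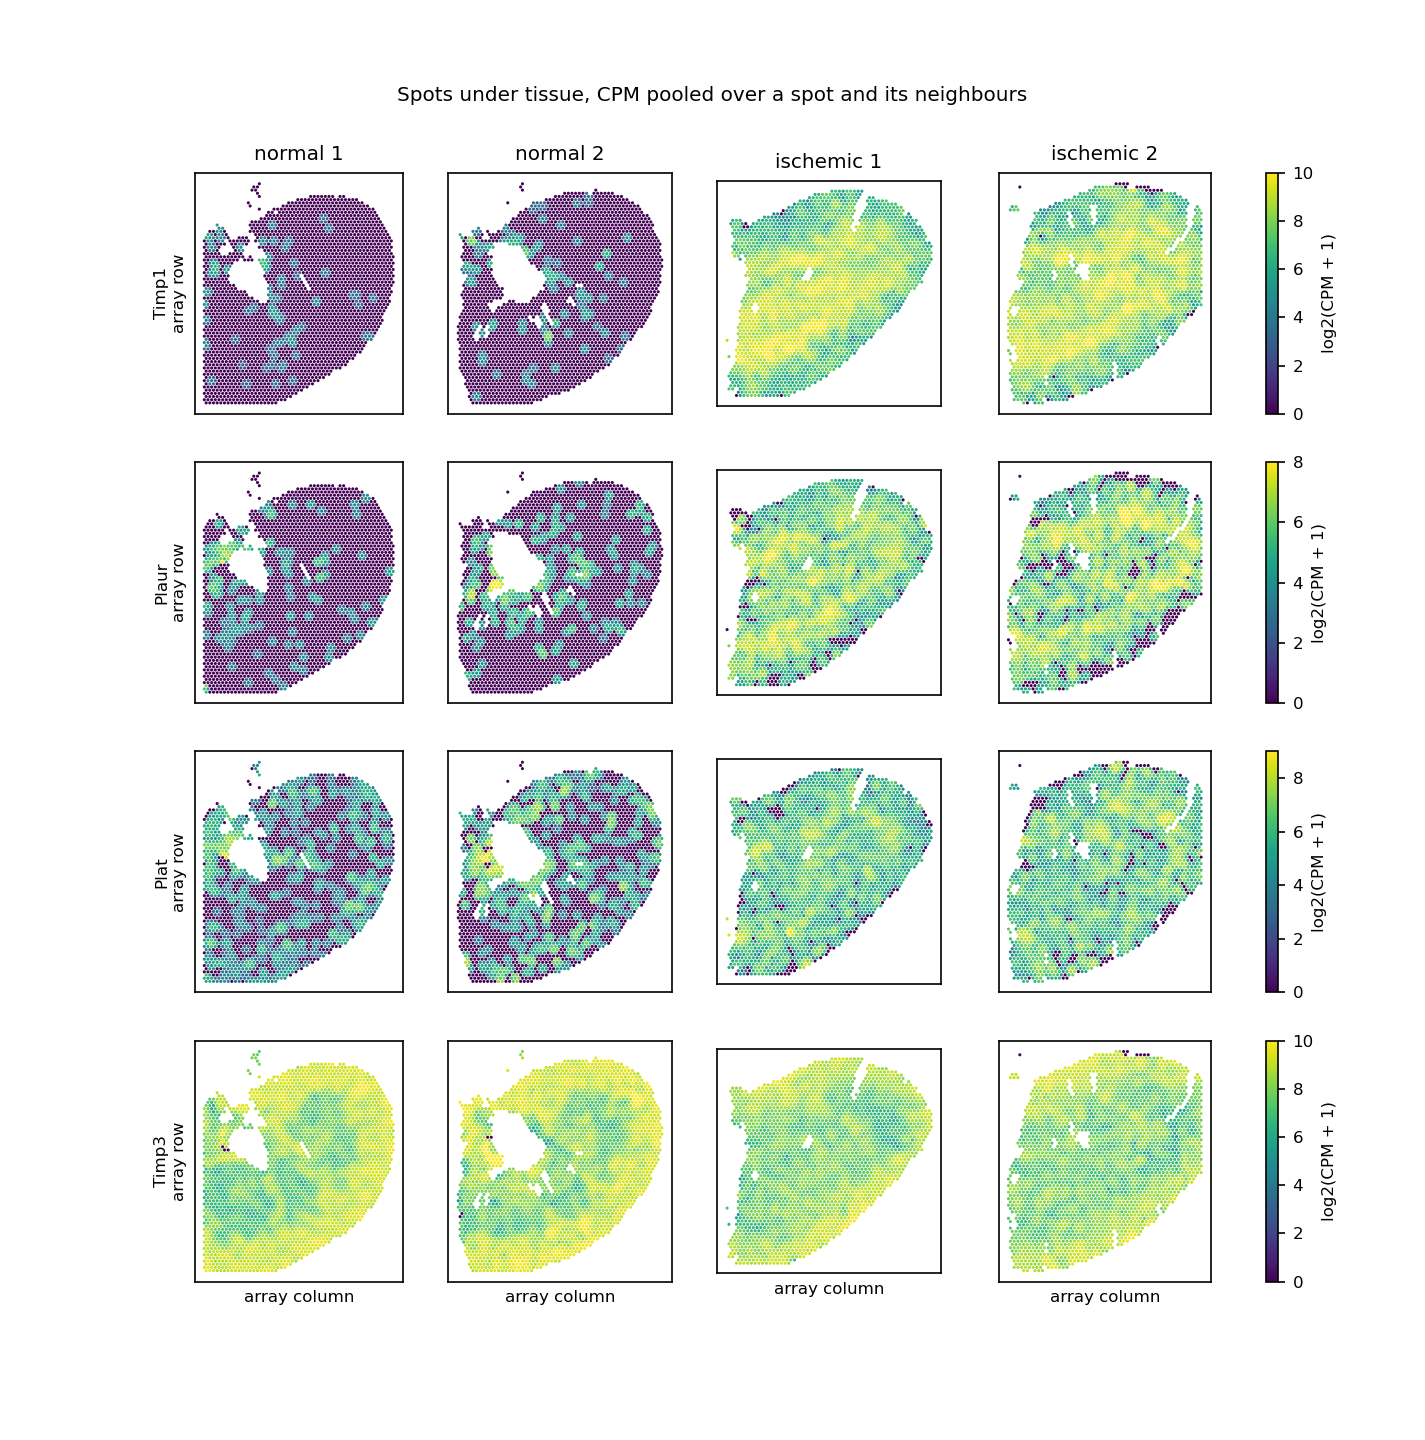
Spots under tissue in the 4 sections, coloured by log2(CPM + 1) of Timp1, Plaur, Plat and Timp3 after pooling each spot with its neighbours; the axes are array column and row and each gene has 1 colour scale. Timp1 and Plaur are near 0 over most of both normal sections and present over most of both ischemic sections, while Timp3 is highest in the outer rim (cortex) of all 4.

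Timp1 rose in all 5 zones. In cortex it went from 1.03 and 4.58 CPM to 152 and 180.2 CPM, and in the outer stripe from 3.49 and 4.86 to 410.1 and 411 CPM. Inner stripe reached 376 and 367 CPM, inner medulla 472 and 417 CPM and pelvis 352 and 311 CPM, against 2.59 to 10.9 CPM in the normal zones. Ischemic cortex was thus the lowest of the ischemic zones in both sections, and all other zones lay well above it. The log2 differences ran from 5.23 ± 0.40 in pelvis to 6.63 ± 0.36 in the outer stripe, and none of these calls was lost in any of 10 alternatives. The cortex value was 5.17 without normal 1 and 7.29 without normal 2.

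Timp3 was highest in the cortex of every section, at 777 and 716 CPM in normal and 473 and 456 CPM in ischemic sections. It fell by 0.69, 0.60, 0.61 and 0.88 on the log2 scale in cortex, outer stripe, inner stripe and inner medulla. In pelvis, with 204 and 186 CPM against 161 and 158 CPM, the difference of -0.29 was not called, though it was called with DESeq2 (-0.31), without normal 2 (-0.37) and when zones were set without neighbours (-0.53). The calls in cortex and both stripes were lost when either ischemic section was left out, with values between -0.70 and -0.57, and in both stripes with scaling by total counts (-0.21 and -0.27). Spots ranked by the perirenal fat list held 2.73 and 2.17 times as much Timp3 in the top as in the bottom group of the normal sections. In the ischemic ones the ratios were 1.39 and 1.299. There the list held only 116 and 98 UMIs, so most spots tied at 0 and the bottom group was arbitrary among them. The part of fat in the differences of Timp3 was not tested.

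Timp2 was highest in the inner medulla and pelvis of normal kidney, at 84.9 to 123 CPM, against 32.7 to 52.7 CPM in the other normal zones. It fell in the inner medulla, from 123 and 84.9 CPM to 45.0 and 46.0 CPM, by 1.16 ± 0.24 on the log2 scale (adjusted p = 9.51e-04). This call was kept in all 10 alternatives, but spots set as inner medulla lay at other depths in the 2 conditions, as given above. The falls in cortex (by 0.86) and outer stripe (by 0.56) were called but were each lost without ischemic 1 (-0.81 and -0.40) and without ischemic 2 (-0.90 and -0.71). In the outer stripe the call was also lost with scaling by total counts (-0.16) and with boundary spots left out (-0.36). In the inner stripe Timp2 stood at 39.5 and 47.0 CPM against 40.7 and 50.8 CPM, and the groups overlapped.

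Plau was highest in the outer and inner stripe of normal kidney, at 53.0 and 43.6 CPM in the outer stripe, 52.2 and 34.5 CPM in the inner stripe and 19.98 and 17.5 CPM in cortex. It rose in pelvis, from 14.7 and 17.9 to 42.4 and 48.6 CPM (log2 difference 1.47 ± 0.30, adjusted p = 0.00136), and in the inner medulla, from 22.6 and 19.6 to 34.3 and 38.3 CPM (0.80 ± 0.28, adjusted p = 0.0348). In cortex, outer stripe and inner stripe the values of 0.46, 0.34 and -0.20 were not called, but these verdicts hung on the setting. Plau was called higher in cortex in 7 of 10 alternatives (range of all 10, 0.16 to 0.75) and in the outer stripe in 4 of 10 (0.21 to 0.75), and it was called lower in the inner stripe without normal 2 (-0.44). The inner medulla call was lost without ischemic 1 (0.89), without ischemic 2 (0.73) and without normal 2 (0.67), and the pelvis call when zones were set without neighbouring spots (0.84).

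Plat had its lowest normal levels in the stripes and its highest ischemic levels in the outer stripe and pelvis. In the outer stripe it rose from 11.6 and 12.4 CPM to 112 and 114 CPM, a log2 difference of 3.23 ± 0.21 (adjusted p = 2.66e-10). In the inner stripe it rose from 11.0 and 16.2 to 63.6 and 56.9 CPM (2.19 ± 0.24), and in cortex from 25.3 and 34.0 to 57.2 and 73.9 CPM (1.15 ± 0.19). The inner medulla, already at 58.5 and 53.5 CPM in normal kidney, stood at 73.3 and 62.6 CPM in ischemic kidney, and 0.29 ± 0.23 was not called. In pelvis it rose from 38.5 and 54.7 to 139 and 90.6 CPM (1.28 ± 0.23), a call lost without ischemic 1 (0.96).

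Plaur rose in all 5 zones. The outer stripe went from the lowest normal level, 2.33 and 3.20 CPM, to the highest ischemic level, 114 and 126 CPM (log2 difference 5.46 ± 0.26, adjusted p = 6.19e-12). Cortex went from 2.84 and 4.67 to 47.4 and 46.2 CPM (3.68 ± 0.24), and the inner stripe from 6.26 and 13.5 to 57.1 and 52.0 CPM (2.56 ± 0.27). In the inner medulla the levels were 13.2 and 22.0 CPM against 83.6 and 66.1 CPM, and in pelvis 19.6 and 16.7 CPM against 82.0 and 56.4 CPM. None of these 5 calls was lost in any alternative.

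Among zones as assigned with neighbouring spots, Mmp7 was highest in pelvis in both ischemic sections (48.7 and 40.04 CPM, 70 and 61 UMIs). Pelvis was also its highest zone in normal 1 (15.4 CPM, 22 UMIs), where a single spot held 18 UMIs. In normal 2 it stood at 5.76 CPM in pelvis and 5.94 CPM in inner medulla, with 10 UMIs in each. In ischemic sections its lowest zone was the outer stripe, at 7.53 and 6.92 CPM, against 14.2 and 10.2 CPM in cortex. It was called higher in all 5 zones, with log2 differences between 2.00 and 7.68, which rest on few normal UMIs. In the inner stripe the normal sections held 0 and 4 UMIs and the value ran from 3.20 to 9.23 over 10 alternatives, and in the inner medulla, with 1 and 10 UMIs, from 1.45 to 4.05. Normal cortex held 0 and 1 UMI against 167 and 88 UMIs in ischemic cortex, so the fitted 7.68 depends on the prior count; per UMI sequenced the ratio was 385, with an exact 95% interval of 68.4 to 15255 that covers counting error only. The calls in inner medulla were lost without ischemic 1 (2.28) and without ischemic 2 (1.75), and that in pelvis without ischemic 1 (1.97). Mmp14, with at most 11 UMIs per section and zone, was not called in any zone. It was called higher in the outer stripe with scaling by total counts (1.68) and when zones were set without neighbours (2.21), and in the inner stripe with scaling by total counts (2.42).

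**Figure D3:**
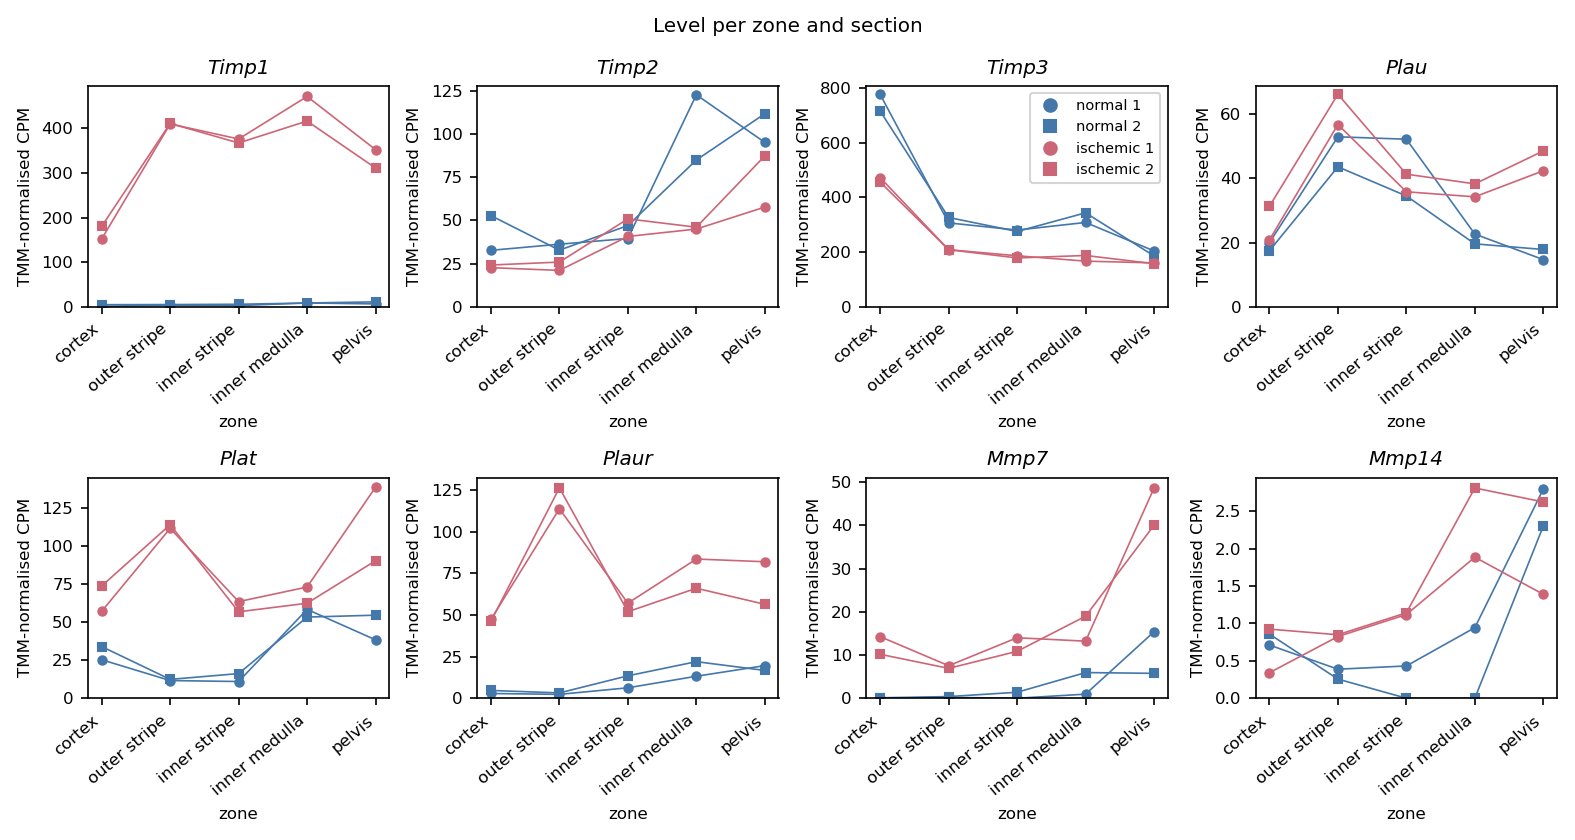
TMM-normalised CPM (linear axes from 0) of the 8 genes in cortex, outer stripe, inner stripe, inner medulla and pelvis, with 1 line per section. Plaur has its ischemic peak in the outer stripe (114 and 126 CPM) and Mmp7 in pelvis (48.7 and 40.04 CPM), while Timp3 is highest in cortex in all 4 sections.

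Read against all 14172 genes tested in zones, the share of members called higher exceeded that of all genes in each zone. In cortex 4 were higher and 2 lower, against 20.3% and 20% of all genes. Outer stripe had 4 higher and 2 lower (27.5% and 29.6% of all genes), inner stripe 4 and 1 (22.2% and 26%), inner medulla 4 and 2 (13.9% and 21.2%) and pelvis 5 and 0 (10.7% and 14.5%). The lower counts thus stayed near the background, and with 8 members the counts describe these genes only. The members were chosen with earlier results of these data known, so the excess of higher calls is no test. Scaling by total counts changed the split over all genes to 3499 higher and 1679 lower in cortex (from 2873 and 2829), 5592 and 2478 in outer stripe (from 3891 and 4189), 4715 and 2354 in inner stripe (from 3149 and 3682) and 2356 and 2295 in inner medulla (from 1964 and 3011).

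**Figure D4:**
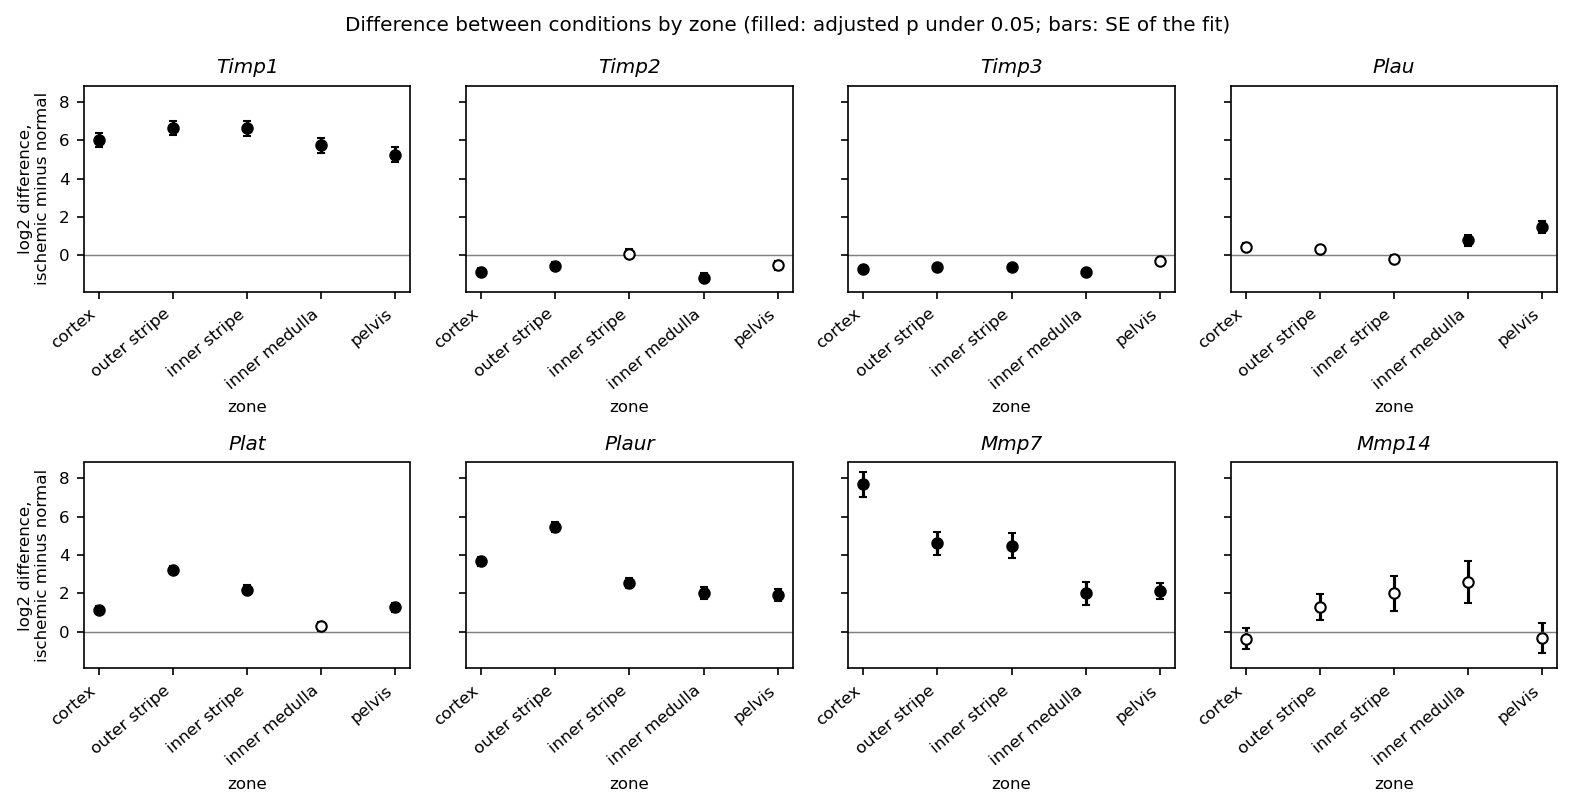
Log2 difference of ischemic minus normal sections in each zone from the edgeR fit, with its SE as bars and filled points where the adjusted p was under 0.05; all panels share 1 axis. Timp1 is called in all 5 zones at 5.23 to 6.63, Plaur and Plat are largest in the outer stripe (5.46 and 3.23), and the cortex value of Mmp7 rests on 1 UMI in normal kidney.

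Within normal kidney, the outer medulla (the mean of both stripes) was compared with cortex. Plau was higher there (log2 difference 1.299 ± 0.17, adjusted p = 8.75e-06), and Timp3 (-1.33 ± 0.11) and Plat (-1.23 ± 0.18) were lower, against 9.65% and 9.59% of all genes higher and lower. In the normal inner medulla, Mmp7, Plaur, Timp1, Timp2 and Plat were higher than in cortex and Timp3 was lower, against 18.5% and 18%. Plaur differed by 2.33 ± 0.38 and Timp2 by 1.27 ± 0.22. Timp1, at 1.69 ± 0.57, was not called without normal 1 (0.86), nor without ischemic 1 or 2, which leaves both normal sections in the comparison (1.66 and 1.65), nor with boundary spots left out (1.65). The value of Mmp7, 6.05, rests on 1 UMI in cortex and was not called without normal 2 (5.54).

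In ischemic kidney, Timp1 (1.24 ± 0.24), Plau (0.91 ± 0.16) and Plaur (0.79 ± 0.17) were higher in the outer medulla than in cortex and Timp3 was lower (-1.25 ± 0.11), against 16.2% and 20.6% of all genes. Plat at 0.34 ± 0.16 and Timp2 at 0.49 ± 0.19 were not called in the outer medulla, nor was Plau at 0.49 ± 0.20 in the inner medulla. With each section as a block all 3 were called higher (0.34, 0.47 and 0.50), and over all alternatives Plat was called in 5 of 12, Timp2 in 7 of 12 and Plau in 5 of 11. In the inner medulla, Mmp14 (1.93 ± 0.60), Timp1 (1.42 ± 0.27), Timp2 (0.96 ± 0.23) and Plaur (0.68 ± 0.20) were higher than in cortex and Timp3 was lower (-1.39 ± 0.13), against 18% and 21.7%. Of these, only Timp3 was called in both comparisons whichever ischemic section was left out. Timp1 and Plaur lost both calls without ischemic 1 (Timp1 1.11 and 1.21, Plaur 0.82 and 0.52) and without ischemic 2 (Timp1 1.37 and 1.63, Plaur 0.77 and 0.82). Timp2 and Mmp14 also lost theirs without ischemic 1 (0.94 and 1.59) and without ischemic 2 (0.99 and 2.39), Mmp14 also when zones were set without neighbours (1.503), and Plau in the outer medulla without ischemic 1 (0.75). With scaling by total counts the split over all genes became 4224 higher and 1180 lower for the normal inner medulla (from 2619 and 2549), 2894 and 1953 for the ischemic outer medulla (from 2302 and 2915) and 4293 and 1836 for the ischemic inner medulla (from 2551 and 3073).

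The zone difference itself changed with ischemia for Plat, Plaur and Mmp7. For Plat, outer medulla minus cortex went from -1.23 to 0.34, a change of 1.56 ± 0.25 (adjusted p = 2.38e-04), 1 of 8 members called against 14.4% of all genes. Without ischemic 1 the change was 1.36 and was not called. When the outer stripe alone stood for the outer medulla, an alternative chosen after seeing the data, the change was 2.09 ± 0.28 for Plat and 1.78 ± 0.40 for Plaur, and both were called. For the inner medulla, Plaur changed by -1.65 ± 0.42 (adjusted p = 0.0187) and Mmp7 by -5.68 ± 1.29 (adjusted p = 0.00960), 2 of 8 members against 7.29% of all genes. Both were lost without ischemic 1 (-1.79 and -5.11), without ischemic 2 (-1.49 and -6.15), without normal 2 (-1.53 and -5.19) and when zones were set without neighbours (-0.88 and -3.55), and Plaur also with scaling by total counts (-1.70).

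Spots of each section were also ranked by a marker list and cut into 4 groups of equal size, as a description without a test. The rank followed the mean of log2(CPM + 1) over the genes of the list, with counts pooled over the spot and its neighbours. With the injured tubule list in ischemic sections, Plaur was 2.57 and 3.04 times as high in the top as in the bottom group of spots (sections 1 and 2). The ratio was 2.36 and 2.37 for Plau, 2.16 and 2.01 for Plat and 1.89 and 1.94 for Timp1. Mmp7 showed almost no gradient, at 0.906 and 0.989, and Timp3 ran the other way, at 0.500 and 0.570. The normal sections, where this list was low, had gradients too, with ratios of 3.07 and 2.28 for Plaur, 2.72 and 5.49 for Timp1 and 0.552 and 0.657 for Timp3. Mmp7, on few UMIs, stood at 0.089 CPM in the bottom and 2.23 CPM in the top group of normal 1. In normal 2 it stood at 0 and 2.50 CPM.

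Timp1 and Timp2 were also graded along stroma. With the fibroblast and mural cell list, the top group of spots held 515 and 483 CPM of Timp1 against 129 and 183 CPM in the bottom group of ischemic 1 and 2, ratios of 4.01 and 2.64. Its ratios along the macrophage and monocyte list were similar, at 3.07 and 2.64 in ischemic sections, and 9.97 and 7.33 in normal ones against 7.16 and 7.51 for the fibroblast and mural cell list. Even the bottom fibroblast group of the ischemic sections was above the top group of the normal sections, 5.38 and 13.4 CPM. Along the same list Timp2 had ratios of 4.77 and 6.52 in the normal sections, and of 2.87 and 3.58 in the ischemic ones. Other members were graded along it too. In ischemic sections Mmp7 had ratios of 1.94 and 2.67, and Mmp14, on few UMIs, of 7.23 and 3.94. Along the endothelial list, Plat had ratios of 4.16 and 4.58 in normal sections but 1.20 and 1.29 in ischemic sections, where its bottom group of spots already stood at 69.8 and 66.8 CPM. Spots hold several cell types, so these gradients do not assign a gene to a cell.

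The other genes of the plasminogen system reported here gave 4 higher and 1 lower of 7 tested, of 10 listed, with a median log2 difference of 1.04 against 0.04 over all genes. Serpine2 (protease nexin-1), a serine protease inhibitor, rose from 17.7 and 16.5 to 42.3 and 47.0 CPM (log2 difference 1.38 ± 0.10). Anxa2 and S100a10, whose complex binds plasminogen at the cell surface, rose by 2.97 ± 0.17 and 1.97 ± 0.15. Serpinf2 (α2-antiplasmin), the plasmin inhibitor, fell by 2.86 ± 0.19, from 468 and 322 to 56.9 and 52.1 CPM. Plg itself was hardly present, with 20 and 8 UMIs in normal and 2 UMIs in each ischemic section, and was not tested. Of the inhibitors in the list, Serpine2 thus rose and Serpinf2 fell.

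Among 16 other matrix metalloproteinases, 13 were tested, 5 were higher and 6 lower, and the median was -0.46. Mmp10 and Mmp8 had no UMI in either normal section and 70 and 57 (Mmp10) and 20 and 12 (Mmp8) in the ischemic sections, at least 43.6-fold and 11.0-fold higher against a floor of 3 counts over both normal sections. Mmp8 is a neutrophil enzyme, and the neutrophil list stood at 182 CPM in ischemic sections, as given above. Mmp19 rose by 3.53 ± 0.33 and Mmp9 by 2.45 ± 0.27. All of these were below 10 CPM in each section. Of the other inhibitors of metalloproteinases, Timp4 fell by 1.96 ± 0.34, from 1.25 and 1.12 to 0.294 and 0.314 CPM, Reck was not called, and A2m was not tested.

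Of 9 ADAM and ADAMTS proteases, all tested, 7 were higher and 2 lower, with a median of 0.43. Adamts4, an aggrecanase, rose by 4.96 ± 0.27 and Adam8 by 3.77 ± 0.25. Adamts1 rose by 2.47 ± 0.11, from 24.2 and 25.0 to 133 and 139 CPM, and Adamts15 fell by 1.32 ± 0.17. Of 8 other protease inhibitors, all tested, 6 were higher and 2 lower, with a median of 0.83. Slpi, an inhibitor of neutrophil elastase, rose from 0.867 and 0.471 to 102 and 92.3 CPM (7.12 ± 0.19). Serpina3n rose by 3.50 ± 0.22 and the cathepsin inhibitor Cstb by 2.03 ± 0.14, while Cst3 (cystatin C) fell by 1.19 ± 0.13. These lists were set with earlier results of these data known, so their counts are descriptions.

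**Figure D5:**
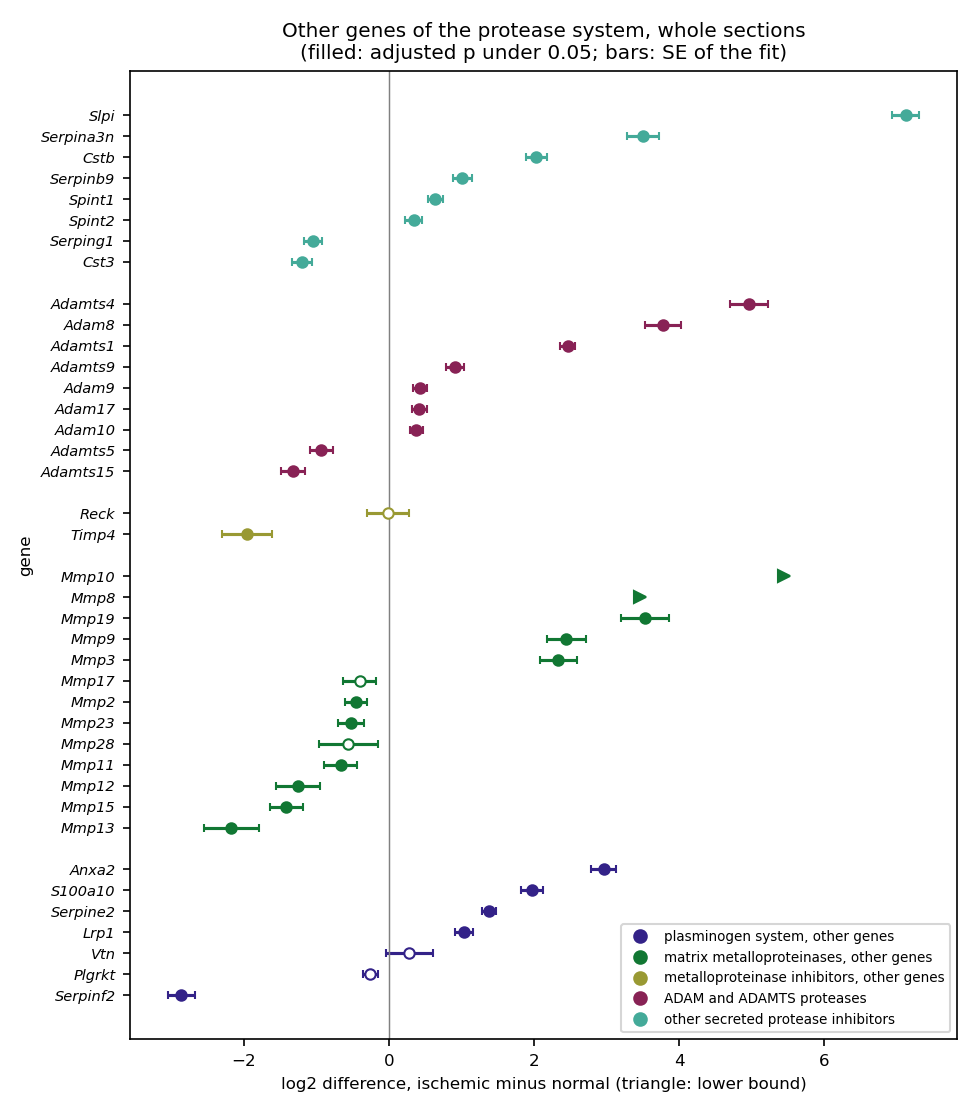
Log2 difference of ischemic minus normal whole sections for the tested genes of 5 lists, with the SE of the fit as bars, filled points where the adjusted p was under 0.05 and triangles for Mmp8 and Mmp10, drawn at the lower bound set by a floor of 3 counts. Each list holds genes on both sides of 0 except the 2 tested metalloproteinase inhibitors; Slpi (7.12) and Adamts4 (4.96) lie far to the right and Serpinf2 (-2.86) far to the left.

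Genes whose pattern was most like that of a member were ranked by Pearson r of log2(CPM + 1) over 20 sums, 4 sections by 5 zones. The sums share sections and depth, so r is a description. For Timp1 the closest were Hnrnpu (0.989), Lif (0.980) and Sav1 (0.980), for Plaur Map4 (0.979), Nfkb2 (0.979) and Mvp (0.978), and for Plat Tes (0.964), Jpt1 (0.943) and Cxcl1 (0.942). For Mmp7 they were Cd14 (0.953), Arl4c (0.951) and B3gnt3 (0.936). Timp3 was closest to Gm15883 (0.971), Klk1 (0.962) and Slc7a7 (0.961), and Timp2 to Fbln1 (0.948), Slc35g1 (0.936) and Dag1 (0.924). The closest genes of Plau (Ocln at 0.839) and Mmp14 (Fdps at 0.874) were less alike.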

How the data were processed

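The authors ran Space Ranger (version 1.3.0 per the file headers, mm10 per the labels) and deposited raw, unnormalized UMI counts for each spot. Only spots under tissue were used. Counts were summed per section and, for zones, per section and zone of at least 20 spots, and tested with edgeR 4.0.16 in R 4.3.3 (TMM scaling, a filterByExpr filter, the quasi-likelihood test, and Benjamini-Hochberg values over all genes tested with a threshold of 0.05). All groups of a fit share 1 estimate of the spread, and in the main zone fit the zones of a section were treated as independent. Conditions came from the labels, and spots were never replicates. All 8 genes passed the filter on low counts.

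Zones followed marker lists: Slc5a2, Slc5a12, Slc34a1, Slc22a6, Slc22a8 and Slc12a3 for cortex, Slc7a13, Cyp7b1, Serpina1f, Slc22a13 and Atp11a for outer stripe, Umod, Slc12a1, Ptger3 and Cldn10 for inner stripe, Aqp2, Fxyd4, Slc14a2, Cryab and Akr1b3 for inner medulla, and uroplakins, Krt5 and Psca for pelvis. A spot, pooled with up to 6 neighbours, took the zone of the highest score, or pelvis in the top 5% with at least 10 counts. Levels are TMM-normalised CPM, except sums of marker lists and spots ranked by them, which are per total UMIs. Intervals are exact at 95%, and the floor for a group without counts was 3 counts.

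The members, lists and tests were chosen with earlier results of these data known. Named genes were the 8 members, up to 4 called genes with the largest difference in each list, and the 3 most alike genes, less 1 listed gene that is not reported here; Plg, Reck, A2m, Havcr1, Syn1 and Syn3 are given as checks or values outside this rule. Coordinates are from GENCODE M21, which held 99.6% of the identifiers. On simulated counts with 200 changed genes, edgeR recovered 184 with 3 false calls for whole sections (15305 genes) and 179 with 8 false calls for the outer stripe (14172 genes). The simulation drew all sums independently with a single fixed spread and changed as many genes up as down. In the data 9279 genes were called over whole sections, so these false-call counts do not carry over to the calls reported here. DESeq2 1.42.0, no filter, scaling, left-out sections and other zone assignments were tried as alternatives. Labels and methods do not state strand use in the counting. Any 2 sections shared 1833 to 2137 spot barcodes, which the array repeats by design.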

Additional observations from a re-analysis of the deposited data

Results flagged for a closer look

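The zone pattern of 3 genes differed between normal and ischemic kidney by a test of the difference itself, the change of a zone's difference from cortex with ischemia. None of these 3 calls held in every alternative, with the losses given above. The outer medulla change was called for 1 of 8 members against 14.4% of all genes. The inner medulla change was called for 2 of 8 members against 7.29% of all genes. For Plat, the outer medulla minus cortex changed by 1.56 on the log2 scale, and the outer stripe went from 11.6 and 12.4 CPM to 112 and 114 CPM. For Plaur, the inner medulla minus cortex changed by -1.65, from 2.33 in normal to 0.68 in ischemic sections. For Mmp7 the same change was -5.68, and it rests on 1 UMI in the cortex of both normal sections together. Over whole sections the injured tubule list stood at 15.1 and 23.9 CPM in normal kidney and at 4720 and 5317 CPM in ischemic kidney, and its part in these changes was not tested. Outliers could not be looked for with 2 sections per condition.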

How the results depend on the processing

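The limits are 2 sections per condition, sparse counts of Mmp14 in all sections and of Mmp7 and Timp1 in normal ones, and zones set by markers that differed between conditions. Over whole sections Timp1, Plat, Plaur and Mmp7 were called in all 9 alternatives. Timp2 was not called with scaling by total counts (-0.20) and Mmp14 was called with pelvis spots left out (0.90). Leaving out 1 section gave log2 differences of -0.62 to -0.29 for Timp2, -0.83 to -0.67 for Timp3 and 0.27 to 0.62 for Plau. Of 941 zone values of the members, 841 kept their side of the threshold, 51 lost the call, 49 gained it and 0 called values changed sign. Values that were not called could change sign, as for Mmp14 between conditions in cortex (-1.13 to 0.26).

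Leaving out 1 section moved the genes called between conditions to 2505 to 7089 in cortex, 4215 to 7511 in inner stripe, 2545 to 4567 in inner medulla and 1100 to 3717 in pelvis, where 3 to 6 members were called. Against cortex it gave 1665 to 3102 genes for the normal outer medulla, 1628 to 7163 for the ischemic outer medulla (1 to 7 members) and 2047 to 6947 for the ischemic inner medulla (1 to 6 members). For the change with ischemia it gave 231 to 3413 genes in outer medulla (0 to 3 members) and 102 to 2098 in inner medulla (0 to 2 members). Against main counts of 2047 and 1033 genes, a section block gave 3267 and 1827. Zones without neighbours gave 2225 genes for pelvis (3561 as reported) and 0 members for the inner medulla change. That change had 1 member with scaling by total counts, and the outer medulla change had 2 members with the outer stripe alone and 3 without a filter on low counts. The cause was not tested, beyond the smaller number of sections where one was left out.

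Sections share only a number between conditions, and the correlation of deviations was 0.219 for the sections numbered 1. With the replicate number as a block, 10089 genes and 7 of the 8 members were called over whole sections, against 9279 genes and 7 members without it. In zones the block kept the counts of called members within 1.5 times.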
